A study of Homo sapiens with 36 samples.

Results

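The 55 genes described here encode proteins that copy DNA or mend it, and were followed in WiT49 cells treated with a low dose of actinomycin D. They were chosen by name and fall into 5 groups: 21 genes of the replication machinery, 5 of mismatch repair, 12 of homologous recombination and damage signalling, 4 of end joining and 13 of excision repair. All 55 were found among the 58219 genes listed in the RNA data and all 55 among the 43582 listed in the footprint data.

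Replication starts when the MCM2 to MCM7 proteins are loaded on DNA as a ring and later unwind it, after which polymerases copy each strand behind the sliding clamp PCNA. Repair pathways then correct what replication or chemistry damaged: mismatch repair removes mispaired bases, homologous recombination and end joining rejoin broken strands, and excision repair replaces damaged bases and bulky adducts. Many replication genes are transcribed in bursts as cells enter S phase under control of the E2F transcription factors, so their RNA level depends on how many cells of a culture are cycling. Actinomycin D inserts itself into DNA and blocks RNA synthesis, and it is a long-standing drug for Wilms tumor, the kidney tumor of childhood.

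WiT49 is a cell line from an anaplastic Wilms tumor, the form with poor response to treatment. Cells were given actinomycin D (actD) at 2 nM, or dimethyl sulfoxide (DMSO) as vehicle, and were taken after 6 h, 72 h or 2 weeks. The 2-week course ran as 2 cycles of 7 days with 3 days of drug or DMSO and then 4 days in plain medium. Total RNA and ribosome footprints, the stretches of RNA that translating ribosomes shield from nuclease, were sequenced in 3 libraries for each assay, time and treatment, 36 in all. Nothing in the labels states that the 3 libraries of a group came from separate cultures, so the errors and p-values measure the spread between these libraries, which may be technical. In the 2-week RNA libraries the titles give the opposite treatment to the library names, so these arms are called actD-named and DMSO-named after the library names, and every RNA sign at 2 weeks turns over if the titles are right.

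Library totals ran from 40221994 to 69240041 counts in RNA but only from 152556 to 1281039 in footprints, so footprint values carry far more counting error. Levels are given as CPM, the counts of a gene as a share of its library on a fixed scale, with TMM scaling between libraries, and fold changes as log2 of actD over DMSO with their standard error (SE). A gene was called when its adjusted p in edgeR's quasi-likelihood test, taken over all genes tested, was under 0.05. Of 10 markers of kidney progenitor cells, 4 reached 1 CPM in RNA at each time, while the summed level of 5 blood cell markers stayed at or under 0.507 CPM. The progenitor markers summed to 21.6 to 67.2 CPM per library. Sums of 5 mesenchymal markers were far higher, from 1550 to 5210 CPM, and those of 4 endothelial markers ran from 0.706 to 18.3 CPM. Mitochondrial ribosomal RNA took 28.2% ± 3.86 (SD, n = 3) of RNA counts in actD at 72 h against 19.1% ± 3.5 (SD, n = 3) in DMSO, and 28.7% in actD-named against 21.3% in DMSO-named libraries at 2 weeks. Its part in the results was not tested.

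One DMSO library lay near the actD libraries in many of these genes. The 72 h RNA library DMSO 3 was the lowest of the 3 DMSO libraries in 40 of the 55 genes, and in 28 of these it also lay at or below the highest actD library. The shares of all genes that did so were not counted. For the 21 replication genes its median ratio to the mean of DMSO 1 and 2 was 0.409, against 0.426 for the actD mean. The summed level of 8 proliferation markers moved with it: 1468 and 1362 CPM in DMSO 1 and 2, 668 CPM in DMSO 3 and 919, 1007 and 552 CPM in the actD libraries. The 72 h counts of genes and their median are given with and without this library. In footprints, too, the MCM2 to MCM7 sum of DMSO 3 was 162 CPM at 72 h, against 864 and 1106 CPM in DMSO 1 and 2 and 155 to 164 CPM in actD, and this was the shallowest library.

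**Figure D1:**
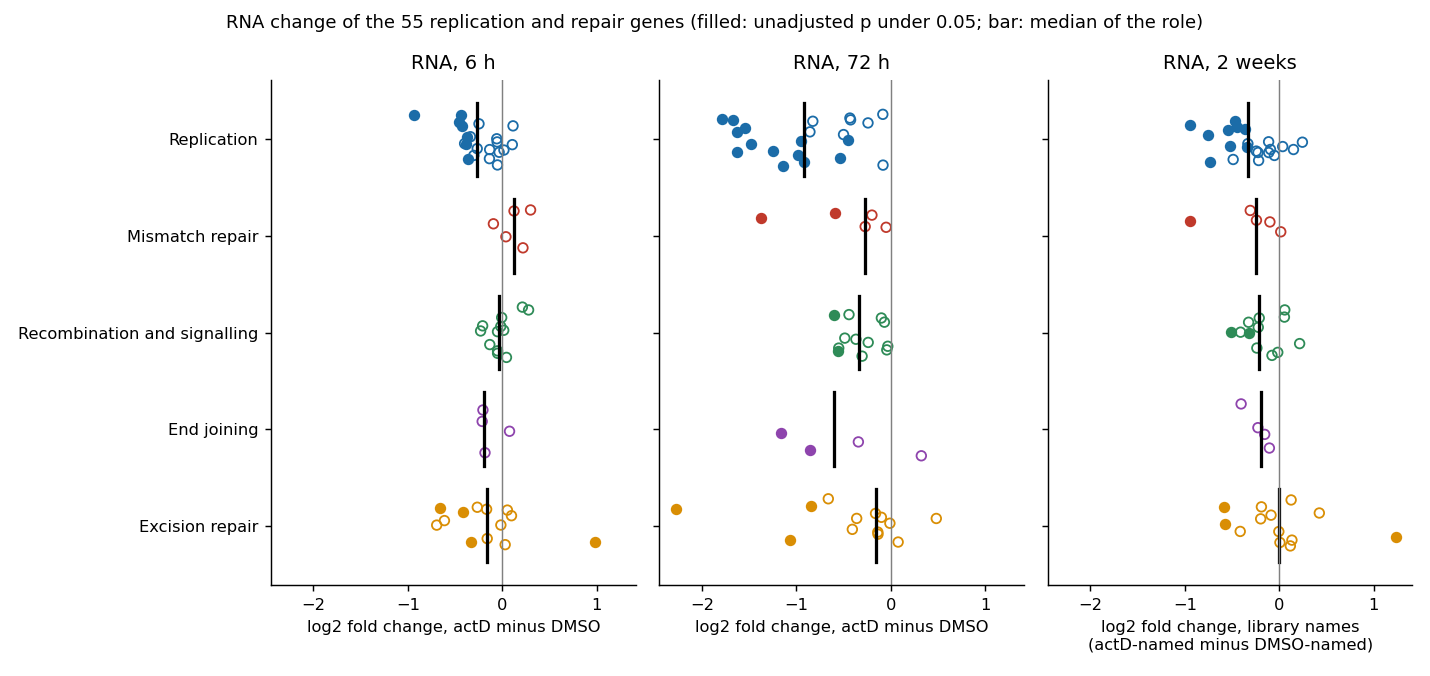
RNA change of the 55 genes at each time. Each point is 1 gene with its log2 fold change (actD over DMSO, by library name at 2 weeks) on the horizontal axis, filled where the unadjusted p was under 0.05. Black bars are group medians. The replication genes lie furthest to the left at 72 h, with a median of -0.91.

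In RNA the genes were mostly lower under actD, above all at 72 h, and no single gene passed the adjusted threshold at any time. At 6 h 39 of 55 had a log2 fold change below 0, at 72 h 52 of 55 and at 2 weeks 42 of 55, against 47%, 48.6% and 53.2% of all genes tested. The median log2 fold change was -0.13, -0.45 and -0.22, beside 0.02, 0.02 and -0.02 over all genes. In a bulk culture, fewer cells in S phase and less RNA per cell cannot be told apart.

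The adjusted test in edgeR called 0 of the 55 genes at 6 h, 72 h and 2 weeks (0%, 0.00472% and 0% of all genes). At an unadjusted p under 0.05, 10 were lower and 1 higher at 6 h, where 4.54% and 3.67% of all genes were. At 72 h 22 were lower and 0 higher, where the shares of all genes were 7.78% and 5.27%. At 2 weeks 14 were lower and 1 higher, where they were 4.93% and 4%. The number lower depended on single libraries and on scaling. At 6 h it was 4 without DMSO 2 (771 of all 23602 genes) and 5 without actD 3 (948 of 23701). With library totals in place of TMM it was 3 (695 of 22669). At 2 weeks it was 23 without actD-named 1 (1439 of 22012) and 9 without actD-named 3 (606 of 22177). With library totals it was 23, where 2481 of 21137 genes were lower and the all-gene median was -0.175. The median of the 55 was -0.097 without actD-named 2. The single fit over all 3 times gave 2 lower at 6 h and 6 at 2 weeks, and its shares over all genes are not given here. DESeq2 called 2, 11 and 5 of the 55 at the 3 times, where it called 0.9%, 2.85% and 0.932% of all genes, and 1 edgeR fit over all 3 times called 16 at 72 h, all lower (4.89% of all genes).

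The 3 actD and 3 DMSO libraries did not overlap and actD was lower for 13 genes at 6 h, 17 at 72 h and 19 at 2 weeks, where 8.17%, 10.3% and 7.83% of all genes did so. They did not overlap and actD was higher for 2, 1 and 3 genes, where 7.66%, 10.5% and 7.86% of all genes did so. For 5 genes a lower actD arm without overlap held at all 3 times: the ligase LIG1, the polymerase subunit POLA1, the clamp loader subunit RFC4, the strand break sensor PARP1 and the scaffold XRCC1. The share of all genes that did so at all 3 times was not counted, and the 2-week part rests on the library names. The glycosylase OGG1 was the 1 gene with a fold change above 0 at all 3 times, at 0.03, 0.48 and 0.13, and its arms overlapped at each. At 72 h leaving out DMSO 3 gave 34 genes lower at an unadjusted p under 0.05 (9.5% of all genes), with a median of -0.59 and still 0 called by edgeR. Leaving out any other library gave fewer than the 22 of the full set. The range ran from 14 without actD 1 (973 of all 21891 genes) to 17 without actD 3 (2040 of 21859).

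The replication genes were the group with the lowest median at 72 h. All 21 had a log2 fold change below 0, with a median of -0.91, and 13 had an unadjusted p under 0.05. At 6 h 18 of 21 were below 0 with a median of -0.27, and at 2 weeks 18 of 21 with a median of -0.33. The largest differences were in MCM2, LIG1, MCM6 and MCM4.

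MCM2, a subunit of the unwinding ring, measured 58.3, 100.4 and 17.5 CPM in the 3 DMSO libraries at 72 h and 14.7, 18.3 and 17.9 CPM in actD. DMSO 3 lay inside the actD range, and DMSO 1 and 2 lay far above it. The log2 fold change was -1.79 ± 0.55 (SE, n = 3 per arm), with an edgeR adjusted p of 0.282, and it was -1.16 without DMSO 2 and -2.23 without DMSO 3. At 6 h MCM2 was at 146, 131 and 113 CPM in DMSO and 65.6, 95.6 and 42.7 CPM in actD, without overlap, a log2 fold change of -0.94 ± 0.27 (SE) with an edgeR adjusted p of 0.464. At 2 weeks the DMSO-named libraries held 69.7, 72.5 and 81.3 CPM and the actD-named ones 57.6, 23.0 and 35.2 CPM.

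MCM4 at 72 h showed the same shape, with 194, 196 and 41.8 CPM in DMSO and 46.9, 49.6 and 42.9 CPM in actD. MCM6 differed in that DMSO 3 stayed above actD: 116, 139.5 and 51.6 CPM against 29.8, 33.8 and 35.3 CPM. Their log2 fold changes were -1.63 ± 0.52 and -1.63 ± 0.35 (SE), with edgeR adjusted p of 0.293 and 0.235. Summed over MCM2 to MCM7, DMSO 1 to 3 held 728, 868 and 254 CPM at 72 h and the actD libraries 218, 246 and 221 CPM. The sum at 6 h was 1267, 1083 and 951 CPM in DMSO and 876, 974 and 661 CPM in actD.

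**Figure D2:**
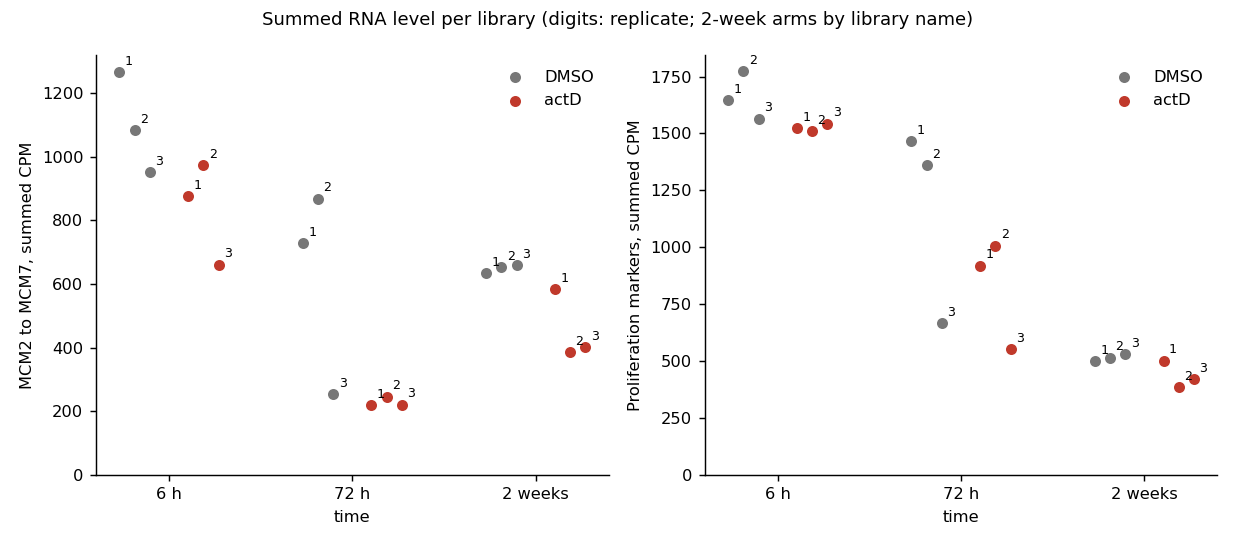
Summed RNA level per library of MCM2 to MCM7 (left) and of 8 proliferation markers (right), in CPM, with the replicate number beside each point. At 72 h DMSO 3 sits at 254 CPM for the MCM genes, next to the actD libraries at 218 to 246 CPM, and its proliferation markers at 668 CPM lie between those of actD 3 and actD 1.

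LIG1, which seals the fragments of the lagging strand, measured 29.2, 41.9 and 13.0 CPM in DMSO and 8.91, 10.6 and 6.86 CPM in actD at 72 h. The arms did not overlap, and the log2 fold change was -1.67 ± 0.42 (SE, n = 3 per arm) with an edgeR adjusted p of 0.26. POLA1, the catalytic subunit of the polymerase that lays down primers, also did not overlap, at 63.7, 76.9 and 40.1 CPM against 24.2, 22.9 and 29.1 CPM. RPA1, the large subunit of the protein that coats single strands, had the smallest adjusted p of the replication genes. It measured 58.0, 84.1 and 41.2 CPM in DMSO and 21.7, 21.0 and 22.9 CPM in actD at 72 h, a log2 fold change of -1.48 ± 0.28 (SE) with an edgeR adjusted p of 0.199.

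The clamp loader genes differed less. RFC1 to RFC5 load the PCNA clamp, and their log2 fold changes at 72 h ran only from -0.54 in RFC3 to -0.084 in RFC2, although the arms of RFC3 and RFC4 did not overlap. RPA3, the small subunit of the same complex as RPA1, was at 85.2, 61.7 and 71.7 CPM in DMSO and 75.9, 69.8 and 60.7 CPM in actD. PCNA itself measured 112, 103 and 49.0 CPM against 59.2, 62.6 and 27.1 CPM, so actD 3 was lowest and DMSO 3 lay below actD 1 and 2. Its log2 fold change was -0.83 ± 0.41 (SE) at 72 h, -0.052 at 6 h and -0.11 at 2 weeks.

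**Figure D3:**
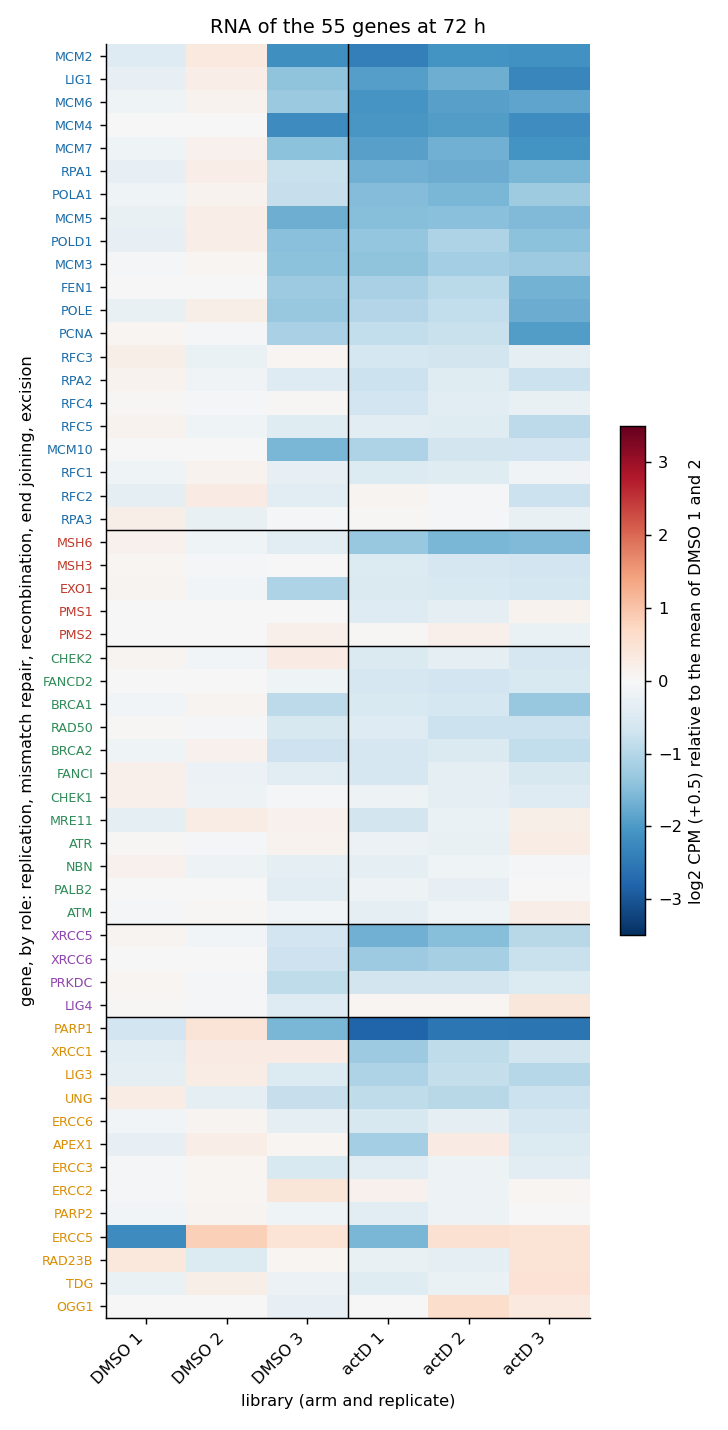
RNA of the 55 genes in the 6 libraries at 72 h. Each row is a gene, grouped by role and ordered by fold change, each column a library, and the colour the log2 CPM (with 0.5 added) relative to the mean of DMSO 1 and 2. Most replication genes are blue in DMSO 3 as well as in actD, with median ratios of 0.409 and 0.426, while MSH6, MSH3, CHEK2 and FANCD2 are lower in each actD library than in any DMSO library.

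The promoters of the list were read for E2F-type letters, given the known E2F control of many replication genes. RefSeq windows (GRCh38.p14) were found for 47 of the 55 genes, and the 250 bases before each start were searched on both strands for TTTCCCGC, TTTGGCGC, TTTCGCGC and TTTGCCGC, which can overlap each other. The 4 replication genes with a match shown here stand for that set, and MSH6 is shown as a gene that was lower without a match. Sequences run 5′ to 3′ in the direction of the gene and capitals mark the matched letters. The windows are chr2:135876444-135876693 (minus strand) for MCM6, chr6:52284743-52284992 (minus) for MCM3, chrX:24693668-24693917 (plus) for POLA1, chr19:48170345-48170594 (minus) for LIG1 and chr2:47782895-47783144 (plus) for MSH6.
MCM6: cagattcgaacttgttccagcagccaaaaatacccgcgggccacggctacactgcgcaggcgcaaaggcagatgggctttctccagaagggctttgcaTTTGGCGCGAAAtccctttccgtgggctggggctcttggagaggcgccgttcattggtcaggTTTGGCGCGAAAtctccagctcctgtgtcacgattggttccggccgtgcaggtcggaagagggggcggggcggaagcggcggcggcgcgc
MCM3: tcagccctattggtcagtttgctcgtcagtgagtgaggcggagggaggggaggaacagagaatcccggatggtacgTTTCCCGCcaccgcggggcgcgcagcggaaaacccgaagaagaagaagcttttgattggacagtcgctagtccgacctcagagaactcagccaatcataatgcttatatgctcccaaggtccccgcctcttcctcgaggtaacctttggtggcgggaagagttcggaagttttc
POLA1: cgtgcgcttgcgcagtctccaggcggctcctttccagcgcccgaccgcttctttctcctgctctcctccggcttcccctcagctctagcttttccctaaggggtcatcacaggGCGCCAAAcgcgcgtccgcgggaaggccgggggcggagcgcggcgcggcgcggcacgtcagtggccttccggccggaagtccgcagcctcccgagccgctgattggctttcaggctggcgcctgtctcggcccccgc
LIG1: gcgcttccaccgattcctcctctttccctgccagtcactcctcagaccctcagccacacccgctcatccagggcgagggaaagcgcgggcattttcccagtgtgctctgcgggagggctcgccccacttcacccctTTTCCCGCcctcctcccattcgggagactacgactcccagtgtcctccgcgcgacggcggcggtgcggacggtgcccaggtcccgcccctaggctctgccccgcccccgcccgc
MSH6: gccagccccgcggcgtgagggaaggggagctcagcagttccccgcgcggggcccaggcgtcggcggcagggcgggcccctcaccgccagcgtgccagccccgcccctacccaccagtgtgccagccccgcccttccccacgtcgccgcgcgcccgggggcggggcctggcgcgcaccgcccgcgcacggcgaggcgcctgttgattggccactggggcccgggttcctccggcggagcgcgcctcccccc

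MCM6 carries 2 runs of TTTGGCGCGAAA, each of which reads as a match on both strands, from 152 to 141 and from 90 to 79 bases before the start. POLA1 carries TTTGGCGC on the opposite strand, read here as GCGCCAAA. Such letters were present in 11 of the 47 genes (23.4%), beside 3.4% of all 27305 genes and 2.79% of all 35116 windows of this length. They were found in 8 of 17 replication genes (47.1%), namely LIG1, MCM3, MCM6, MCM7, PCNA, POLA1, POLE and RFC3. Among the others they were found in 2 of 5 mismatch repair genes (40%, MSH3 and PMS2), in UNG as 1 of 13 excision genes (7.69%), in 0 of 2 end joining genes and in 0 of 10 recombination and signalling genes. The list also held the GC box GGGCGG more often, in 76.6% of its genes against 46.2% of all genes, and the CCAAT box in 59.6% against 37%, both read on either strand. The 8 replication genes with a match had a median log2 fold change at 72 h of -1.10 and the 9 without one -0.45, given as a description. MCM2, with the lowest fold change of the group, had no match in its window, and a match or its absence says only whether these letters are there.

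Of the mismatch repair genes, MSH6 stood apart. MSH6 encodes the partner that recognises single mispaired bases, and its gene lies at chr2:47695530-47810101 (plus strand, GRCh38). Its RNA at 72 h was 146, 118 and 102 CPM in DMSO and 52.7, 43.7 and 44.7 CPM in actD, so that even DMSO 3 lay well above every actD library. The log2 fold change was -1.38 ± 0.21 (SE, n = 3 per arm), with the smallest edgeR adjusted p of the 55 genes, 0.174, and DESeq2 gave an adjusted p of 1.36e-05.

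MSH6 RNA did not differ in this way at 6 h. At that time it was 128, 120.0 and 108.7 CPM in DMSO and 176, 159.9 and 104 CPM in actD, a log2 fold change of 0.30 ± 0.19 (SE) with overlapping arms. The change in effect from 6 h to 72 h was -1.69 ± 0.29 (SE) with an edgeR adjusted p of 0.143, and DESeq2 gave 0.000211 (0.652% of all genes called by it). Over all 55 genes this change in effect was below 0 in 47, beside 52.1% of all genes, with a median of -0.49, and edgeR called 0 of them (0.0165% of all genes). At an unadjusted p under 0.05, 12 were lower and 0 higher, where 5.18% and 2.84% of all genes were. Leaving out DMSO 3 of 72 h brought 1 call, MCM6 (0.0558% of all genes).

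At 2 weeks the DMSO-named libraries held 175, 179 and 155 CPM of MSH6 and the actD-named ones 146, 72.6 and 46.4 CPM. The arms did not overlap, but actD-named 1 lay close to the DMSO-named libraries and far above actD-named 2 and 3. The log2 fold change was -0.94 ± 0.36 (SE), with an edgeR adjusted p of 0.512, and was -1.49 without actD-named 1. Exons of FBXO11, on the other strand, overlap those annotated for MSH6 by 1785 bases, and whether the counting used strand is not given in the sources used here. FBXO11 was listed at 0 in the footprint data.

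MSH3, the partner that recognises larger loops, measured 32.7, 29.2 and 30.9 CPM in DMSO and 22.1, 20.2 and 19.4 CPM in actD at 72 h. The arms were narrow and did not overlap, with DMSO 3 inside the DMSO range, and the log2 fold change was -0.59 ± 0.18 (SE) with an edgeR adjusted p of 0.282. PMS1 and PMS2, subunits of the nicking partners, were at -0.20 and -0.05 with overlapping arms. The nuclease EXO1 was at -0.27, and its DMSO 3 value of 24.8 CPM lay below all 3 actD libraries. PMS2 has near-identical copies in the genome, so its counts are uncertain.

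In homologous recombination and damage signalling all 12 genes had a log2 fold change below 0 at 72 h, with a median of -0.34 and a narrow range from -0.60 to -0.032. CHEK2, a kinase that signals broken DNA, measured 19.8, 17.2 and 22.7 CPM in DMSO and 12.9, 14.4 and 12.1 CPM in actD. FANCD2, which is loaded at crosslinks between strands, measured 50.9, 52.7 and 46.8 CPM and 34.1, 32.4 and 35.8 CPM. In both the arms did not overlap and DMSO 3 kept to the DMSO level, and the log2 fold changes were -0.60 ± 0.20 and -0.56 ± 0.17 (SE) with edgeR adjusted p of 0.314 and 0.282. CHEK2 has pseudogene copies that could share its reads.

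BRCA1, which helps to resect and repair breaks, was at 53.1, 61.3 and 29.9 CPM in DMSO and 39.0, 37.0 and 22.4 CPM in actD at 72 h. DMSO 3 and actD 3 were the low libraries of their arms, which overlapped, and the log2 fold change of -0.55 ± 0.33 (SE) had an edgeR adjusted p of 0.513. The apical kinases ATM and ATR lay at -0.032 and -0.1. At 6 h the group's median was -0.03 and at 2 weeks -0.22, where BRCA2, a mediator of homologous recombination, had the lowest value at -0.51 ± 0.13 (SE). BRCA2 at 2 weeks measured 71.3, 74.2 and 68.1 CPM in the DMSO-named and 57.5, 43.0 and 49.2 CPM in the actD-named libraries.

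In end joining the Ku genes were the lowest at 72 h. XRCC5 and XRCC6 encode the 2 subunits of Ku, the ring that binds broken ends. XRCC5 measured 513, 454 and 305 CPM in DMSO and 151, 170.5 and 245 CPM in actD, and XRCC6 405, 393 and 239 CPM and 165, 177 and 233 CPM. Neither overlapped, although DMSO 3 and actD 3 of XRCC6 were 239 and 233 CPM, and the log2 fold changes were -1.17 ± 0.29 and -0.85 ± 0.27 (SE) with edgeR adjusted p of 0.257 and 0.293. PRKDC, the kinase that Ku recruits, was at -0.34 ± 0.28 (SE) with overlapping arms. LIG4, the ligase of the pathway, was at 35.9, 33.6 and 25.4 CPM in DMSO and 36.1, 36.7 and 45.9 CPM in actD, with actD higher and no overlap, although DMSO 1 and actD 1 nearly touched.

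Excision repair held both the lowest and the highest values. PARP1, which senses breaks and builds poly(ADP-ribose), had the largest RNA difference of the 55 genes at 72 h: 138, 299.7 and 71.3 CPM in DMSO against 30.8, 37.7 and 36.7 CPM in actD. The DMSO libraries varied widely, yet the lowest of them, DMSO 3, was still above every actD library, and the log2 fold change was -2.27 ± 0.48 (SE, n = 3 per arm) with an edgeR adjusted p of 0.232. It was -1.58 without DMSO 2 and -2.65 without DMSO 3. At 6 h PARP1 was at 294, 303 and 295 CPM in DMSO and 206, 239 and 118 CPM in actD, and at 2 weeks at 206, 218 and 253 CPM in DMSO-named and 171, 125 and 154 CPM in actD-named libraries.

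XRCC1, the scaffold that PARP1 recruits, had DMSO values of 10.4, 16.7 and 16.5 CPM and actD values of 5.28, 7.14 and 8.45 CPM at 72 h. LIG3, the ligase that XRCC1 binds, had 64.6, 95.6 and 57.6 CPM and 37.3, 44.6 and 39.5 CPM. Both were free of overlap, with log2 fold changes of -1.06 ± 0.29 and -0.84 ± 0.24 (SE) and edgeR adjusted p of 0.265 and 0.27. Exons of RFFL, on the other strand, overlap those of LIG3 by 3754 bases, and exons of CAMK1 overlap those of OGG1 by 2180 bases. Because strand use in the counting is not given, the counts of LIG3 and OGG1 may hold reads of these genes. XRCC1 at 2 weeks measured 23.0, 25.4 and 24.0 CPM in the DMSO-named and 17.5, 15.7 and 15.4 CPM in the actD-named libraries, a log2 fold change of -0.58 ± 0.11 (SE) with an edgeR adjusted p of 0.307. MCM5, another subunit of the unwinding ring, gave the next smallest p among lower genes at 2 weeks. It measured 66.8, 61.6 and 64.6 CPM in the DMSO-named and 49.1, 45.1 and 40.5 CPM in the actD-named libraries, a log2 fold change of -0.52 ± 0.11 (SE) with an edgeR adjusted p of 0.375.

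The 8 other excision genes below 0 at 72 h ranged from -0.66 in the uracil glycosylase UNG to -0.0096 in RAD23B. ERCC5, a nuclease of nucleotide excision repair, varied from 4.00 to 36.6 CPM within the DMSO arm, and most of its exons also belong to the readthrough gene BIVM-ERCC5, so its counts are uncertain. The group's median was -0.17 at 6 h, -0.16 at 72 h and -0.0044 at 2 weeks.

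Some excision genes ran against the rest. TDG, a glycosylase that removes thymine or oxidised methylcytosine opposite guanine, was at 40.1, 37.7 and 38.3 CPM in DMSO and 80.3, 76.4 and 71.7 CPM in actD at 6 h. Each actD library lay far above each DMSO library, with tight replicates, and the log2 fold change was 0.98 ± 0.10 (SE, n = 3 per arm) with an edgeR adjusted p of 0.0596. DESeq2 gave 8.5e-10. At 72 h TDG was at 42.9, 58.2 and 43.5 CPM and 37.9, 43.1 and 71.6 CPM, with overlap, and at 2 weeks its log2 fold change was -0.20 ± 0.17 (SE). The change in effect from 6 h to 72 h was -0.91 ± 0.32 (SE) with an edgeR adjusted p of 0.525.

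APEX1, the endonuclease that cuts at missing bases, was higher in the actD-named libraries at 2 weeks, at 108.9, 75.0 and 69.1 CPM against 29.2, 34.9 and 43.4 CPM. The log2 fold change was 1.24 ± 0.21 (SE, n = 3 per arm) with an edgeR adjusted p of 0.246, and DESeq2 gave 6.49e-06. At 6 h the same gene ranged from 21.1 to 118 CPM within the DMSO arm alone. MCM6 followed TDG and MCM2 by p at 6 h. It measured 138, 128 and 127 CPM in DMSO and 102, 109.9 and 88.6 CPM in actD, with a log2 fold change of -0.38 ± 0.12 (SE) and an edgeR adjusted p of 0.499.

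Ribosome footprints were thin for these genes. Over the 18 libraries the 55 genes held 14279 footprint counts, and PRKDC, MCM7, MSH6, APEX1 and XRCC6 took 66.6% of them. CHEK2 and XRCC1 were listed at 0 in all 18 footprint libraries and 8 genes in at least 15 of 18, although every gene had at least 150 counts in every RNA library. With footprints of 3 counts or fewer a level cannot be told from 0, a floor that lay between 2.70 and 37.3 CPM depending on the library. Only 10, 16 and 9 of the 55 genes passed the filter on low counts at 6 h, 72 h and 2 weeks, so counts over them do not stand for the whole list.

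In footprints at 72 h MSH6, lower in actD, and RAD23B, higher, were the 2 genes called of 16 tested (3.79% of all 2426 genes were called). RAD23B passed the filter on low counts only through its actD libraries, and MSH6 would not have passed without its DMSO libraries. Neither call is therefore a measure of a change. At least MSH6, POLA1, RFC1, BRCA2 and LIG4 would not have passed on their actD libraries alone, so their testing rested on high DMSO values. At 6 h this held at least for MSH6, POLA1, FEN1, FANCD2 and XRCC6, and at 2 weeks at least for RFC1. The counts and medians below share this limit. Of the 16, 15 had a log2 fold change below 0, as did 47.2% of all genes tested, with a median of -1.03 beside 0.07 over all, which was -0.613 without DMSO 2 and -0.679 without DMSO 1. At an unadjusted p under 0.05, 8 were lower and 1 higher, where 13.1% and 14.2% of all genes were. The arms did not overlap for 5 lower and 1 higher gene, where 16.2% and 19.5% of all genes did so. No gene was called at 6 h (10 tested) or at 2 weeks (9 tested), where edgeR called 0% of all genes. At an unadjusted p under 0.05 MSH6 was the 1 gene of the list at each of these times, lower in both, where 1.9% and 4.51% of all genes were lower, and 0 genes were higher, where 1.24% and 4.07% of all were. All 10 genes tested at 6 h had a log2 fold change below 0, with a median of -0.33, and 5 of 9 at 2 weeks, with a median of -0.17, beside 43.2% and 48.7% of all genes. The 6 h median was -0.596 without actD 3. The 2-week median turned to 0.085 without DMSO 1 and 0.02 without DMSO 3, and was -0.485 without actD 1 and -0.297 without actD 3. The arms did not overlap for 3 lower and 0 higher genes at 6 h (5.69% and 3.71% of all) and for 1 lower and 1 higher at 2 weeks (6.57% and 8.32% of all). DESeq2 called 1 at 6 h, MSH6 (0.99% of all genes), and 0 at 2 weeks (0%).

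Footprints of MSH6 at 72 h were 321, 449 and 211 CPM in DMSO, from 142, 134 and 17 counts, and 26.9, 29.9 and 61.9 CPM in actD, from 18, 11 and 52 counts. Even DMSO 3, the lowest DMSO library, lay far above actD 3, the highest actD library. The log2 fold change was -3.04 ± 0.51 (SE, n = 3 per arm) with an edgeR adjusted p of 0.047, which lay between 0.000291 and 0.231 over the alternative settings. The call was lost when DMSO 1, DMSO 2, actD 1 or actD 2 was left out (edgeR adjusted p 0.133 to 0.188), and held without DMSO 3 (0.0403) or actD 3 (0.0409). The fold change itself stayed between -3.44 and -2.76. MSH6 would not have passed the filter on low counts on its actD libraries alone, so the call is no measure of a change.

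MSH6 footprints were lower at the other times too. At 6 h they were 182, 153 and 121 CPM in DMSO and 33.1, 60.9 and 51.7 CPM in actD, a log2 fold change of -1.64 ± 0.48 (SE). At 2 weeks, where footprint titles and library names do not conflict, they were 89.8, 79.2 and 77.0 CPM in DMSO and 54.7, 13.7 and 21.9 CPM in actD, a log2 fold change of -1.44 ± 0.51 (SE). The arms did not overlap at any of the 3 times, and the edgeR adjusted p was 0.889 at 6 h and 0.539 at 2 weeks. At 6 h, too, MSH6 would not have passed the filter on its actD libraries alone.

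**Figure D4:**
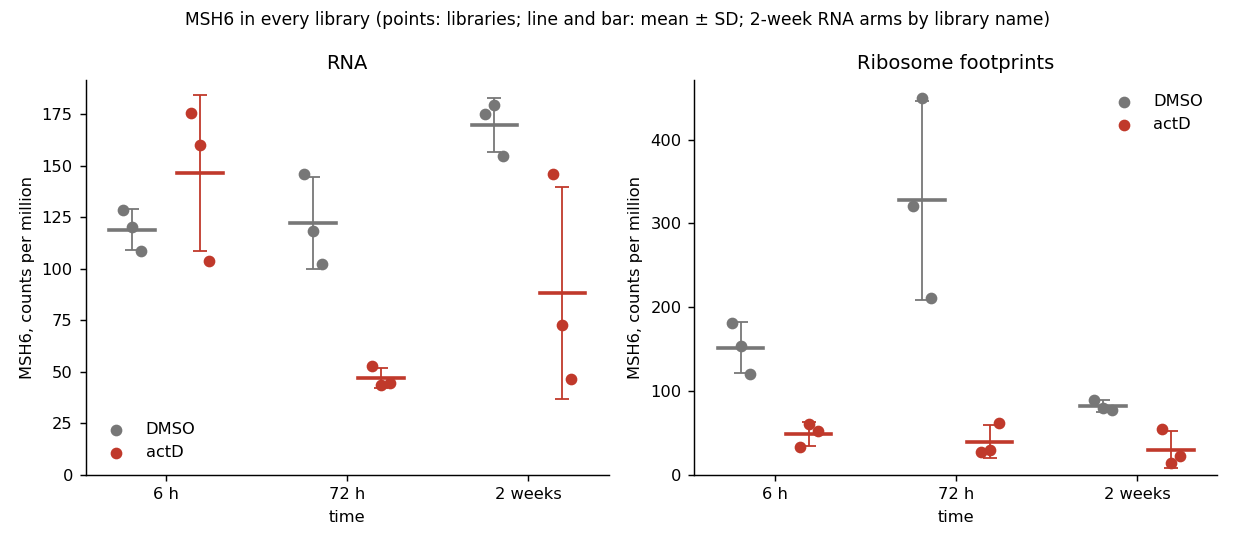
MSH6 in all 36 libraries, in CPM, for RNA (left) and ribosome footprints (right). Points are libraries, horizontal lines means and vertical bars SD (n = 3). In RNA the arms overlap at 6 h and separate at 72 h, while in footprints the actD libraries lie below all DMSO libraries at 6 h, 72 h and 2 weeks.

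RAD23B, which hands damaged sites to nucleotide excision repair and carries ubiquitylated proteins to the proteasome, is encoded at chr9:107283137-107332194 (plus strand, GRCh38). Its footprint counts at 72 h were 2, 0 and 0 in DMSO and 50, 11 and 31 in actD, a depth-adjusted ratio of 20.1 with a 95% exact counting interval from 5.41 to 168. The DMSO libraries lay at or under the floor of 3 counts, so the size of the difference is not known beyond this interval, and the fitted log2 value ran from 3.53 to 7.45 when 1 library was left out. The edgeR adjusted p was 0.0473. At 6 h the counts lay the other way, 33 over the DMSO libraries and 2 over the actD libraries, and at 2 weeks they were 18 and 28. Its RNA at 72 h was 578, 325 and 475 CPM in DMSO and 377, 365 and 626 CPM in actD, a log2 fold change of -0.0096 ± 0.31 (SE). An RNA of this level listed at 0 or a few counts in whole libraries may be a failed estimate. Leaving out any library other than actD 3 ended the RAD23B call, with an edgeR adjusted p of at most 0.217.

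Among the 5 genes with most footprints at 72 h, PRKDC showed no such difference. It measured 1606, 1086 and 1007 CPM in DMSO and 1436, 1139 and 1065 CPM in actD, a log2 fold change of -0.025 ± 0.46 (SE) whose sign changed with the setting. MCM7, a subunit of the unwinding ring, measured 538, 751 and 112 CPM and 102, 119.6 and 131 CPM, so that DMSO 3, with 9 counts, lay among the actD libraries, and its log2 fold change was -2.01 ± 0.65 (SE) with an edgeR adjusted p of 0.104. Without DMSO 3 edgeR called MCM7, MCM4 and MCM2 lower beside MSH6, with an adjusted p of 0.0403 for each (1.71% of all genes called). Without actD 3 it called 6 genes, MSH6, RFC1, POLA1, FANCD2 and PARP1 lower and RAD23B higher (10.4% of all genes called). MCM2 and PARP1 held only 2 and 6 counts over all actD libraries at 72 h. They reached these tests through their DMSO libraries, so their calls are no measure of a change. The filter limit given above for MSH6, RFC1, POLA1 and RAD23B holds for these calls too. MCM4, POLA1, BRCA2, RFC1, FANCD2 and RAD50 had an unadjusted p under 0.05 and log2 fold changes from -2.22 in MCM4 to -1.28 in RAD50, whose exons overlap those of AC116366.3 over 7784 bases. XRCC6 was at -0.71 ± 0.48 and APEX1 at -0.46 ± 0.75 (SE), both with overlapping arms.

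PARP1 and MCM2, with the lowest RNA fold changes at 72 h, had too few footprints for the filter. PARP1 held 52 counts over the DMSO libraries at 72 h and 6 over actD, a depth-adjusted ratio of 0.0504 with a 95% exact counting interval from 0.0177 to 0.117. MCM2 held 62 and 2 counts, a ratio of 0.0141 with an interval from 0.00167 to 0.0531. The intervals cover counting error only. They leave out the spread between libraries, and PCR copies of 1 molecule may have been counted more than once. The fit over all 3 times, which tested 26 of the 55, called MCM2, PARP1, POLA1 and MSH6 lower and RAD23B higher at 72 h (2.41% of all genes called). MCM2 and PARP1, with 2 and 6 counts in actD at 72 h, could not have passed its filter on those libraries. RAD23B could not have passed it on its DMSO libraries at 72 h. These calls are therefore no measure of a change, and the filter limit given above holds for POLA1 and MSH6.

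**Figure D5:**
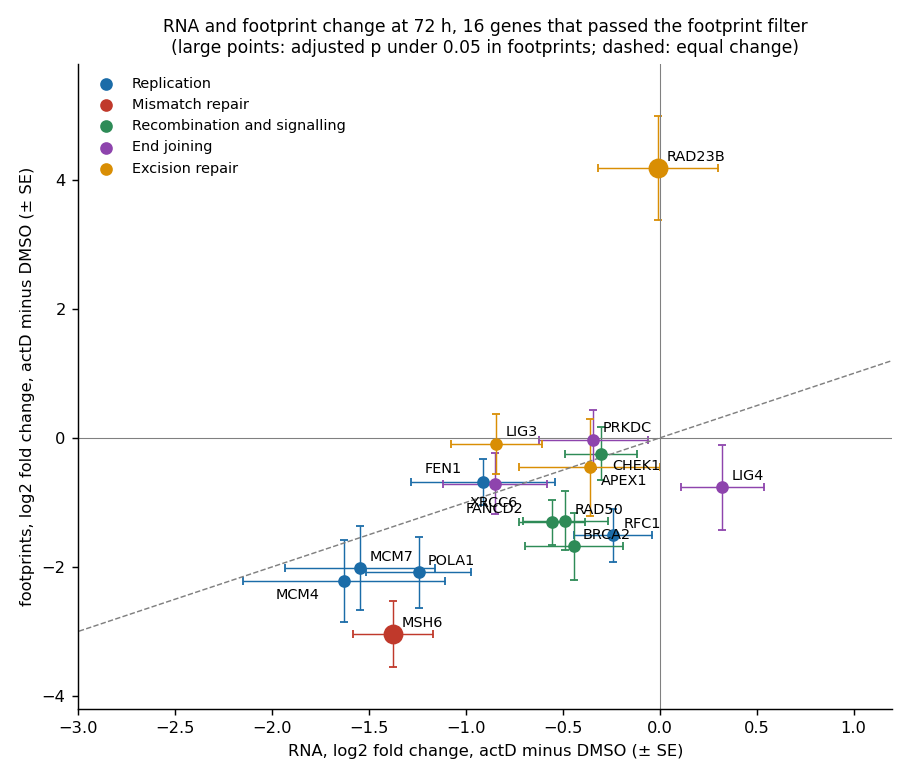
Log2 fold change at 72 h in RNA (horizontal) and in footprints (vertical), each with its SE, for the 16 genes that passed the footprint filter. Large points are the 2 genes called in footprints, where each call is limited by the filter on low counts as given in the text. MSH6 lies lowest at -1.38 in RNA and -3.04 in footprints, and RAD23B highest in footprints, at a fitted height that rests on 2 DMSO counts and is no measured size, while PRKDC, FEN1 and XRCC6 lie near the dashed line of equal change.

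Translational efficiency, the footprint level relative to RNA, was tested as the difference of the 2 changes. At 72 h edgeR called 0 of 16 genes (0.433% of all 2311), with 4 lower and 1 higher at an unadjusted p under 0.05, where 5.76% and 9.17% of all genes were, while DESeq2 called 2, MSH6 and RAD23B (2.55% of all genes). Of the 16, 12 were below 0, as were 48.1% of all genes, with a median of -0.76 beside 0.03 over all genes, which was -0.407 without footprint library DMSO 2 and -0.432 without RNA library DMSO 3. With library totals in place of TMM 0 of the 16 were lower at an unadjusted p under 0.05, where 11 of all 2311 genes were. The limit from the footprint filter, given above, holds for these 16 too. MSH6 was at -1.83 ± 0.48 (SE) with an edgeR adjusted p of 0.11. RAD23B had an edgeR adjusted p of 0.0732 from the same DMSO footprints of 2, 0 and 0 counts, so no size is given. PRKDC, MCM7, XRCC6 and APEX1 were at 0.14 ± 0.44, -0.68 ± 0.71, -0.033 ± 0.52 and -0.30 ± 0.78 (SE).

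At 6 h MSH6 was the 1 gene of 10 with an unadjusted p under 0.05 in translational efficiency, where 2.31% of all genes were lower and 2.94% higher at that level. Of the 10, 6 were below 0, as were 52.4% of all genes. MSH6 was at -1.96 ± 0.36 (SE) with an edgeR adjusted p of 0.202 and a DESeq2 adjusted p of 0.000546 (0.105% of all genes called by it), while edgeR called 0 of the 10 genes (0% of all). The limit from the footprint filter, given above for MSH6 at 6 h, holds here too. At 2 weeks, with RNA arms by library name, edgeR and DESeq2 called 0 of 9 genes (0% and 0.0694% of all). The unadjusted p was under 0.05 for XRCC6, higher at 0.66 ± 0.28 (SE), and APEX1, lower at -1.02 ± 0.32 (SE), where 2.71% and 2.43% of all genes were. With the RNA arms by title 1 gene was called, APEX1, at 1.49 (1.87% of all genes). The footprint effect at 72 h against 6 h gave 0 of 19 called by edgeR (0% of all), 1 lower (PARP1) and 1 higher (RAD23B) at an unadjusted p under 0.05, where 2.03% and 4.52% of all genes were. DESeq2 called RAD23B in it (0.199% of all genes). At 72 h RAD23B held 2 counts over the DMSO libraries and PARP1 6 over the actD libraries, so neither result is a measure of a change.

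A further 128 genes of the same pathways gave the surroundings of the list. Their median log2 fold change in RNA was -0.05 at 6 h, -0.18 at 72 h and -0.07 at 2 weeks, and edgeR called 0 at each time. At 72 h 83 of 128 were below 0, beside 48.6% of all genes. At an unadjusted p under 0.05, 21 were lower and 1 higher, where 7.78% and 5.27% of all genes were. The 48 further replication genes had a median of -0.40 at 72 h, and the 34 further excision genes 0.06. Among the lower genes with the smallest p was RRM1, the large subunit of ribonucleotide reductase, at -1.51 ± 0.30 (SE). Another was DDB1, the partner of DDB2 in a complex that recognises damage, at -1.50 ± 0.30 (SE). DDB2 itself was at 0.13. The higher genes with the smallest p were GTF2H2 at 0.75 ± 0.20, XPA at 0.47 ± 0.23 and DCLRE1C at 0.35 ± 0.20 (SE).

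In footprints at 72 h 11 of the 128 were tested, 6 of them below 0 with a median of -0.37, beside 47.2% of all genes. Of the 11, edgeR called 2, where it called 3.79% of all genes. These were DDB1 and XAB2, which acts in repair of transcribed strands, and both were lower in actD. Neither would have passed the filter on low counts on its actD libraries alone, so their testing rested on high DMSO values. DDB1 was at 86.0, 138 and 137 CPM in DMSO and 23.9, 29.9 and 33.3 CPM in actD, a log2 fold change of -2.01 ± 0.36 (SE). XAB2 was at 86.0, 101 and 99.5 CPM and 35.8, 16.3 and 28.6 CPM, a log2 fold change of -1.77 ± 0.36 (SE), and each gene had an edgeR adjusted p of 0.0473. In both genes the arms did not overlap, and DDB1 was also among the lowest in RNA. XAB2 kept its call in 1 of 11 alternative settings and DDB1 in 3 of 11.

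Levels in vehicle cells, per kilobase of exon, placed XRCC6 first of the 55 at 6 h with 155 ± 24.3 CPM per kb (SD, n = 3), RAD23B next with 109.5 ± 15.3 and XRCC5 after it with 98.1 ± 11.4. XRCC6 lay above RAD23B by more than their SDs, whereas RAD23B and XRCC5 did not differ beyond them. The order of these 3 was the same at 72 h and 2 weeks, with 105 ± 28.1, 99.5 ± 27.6 and 77.6 ± 19.6 CPM per kb at 72 h, where the spreads overlapped. It depended on the length used. Per kb of the longest transcript XRCC6 stayed first, but XRCC5 lay above RAD23B at all 3 times. At 6 h these were 142.4 and 122.6 CPM per kb, with MCM7 between them at 134.1. At the low end stood ERCC6, a remodeller in repair of transcribed strands, with 0.837 ± 0.124 and OGG1 with 0.882 ± 0.0246 CPM per kb. As a description across the 55 genes, Spearman's rho between the RNA log2 fold change and the length of the gene was 0.17 at 6 h, 0.056 at 72 h and -0.095 at 2 weeks, over genes of the same libraries, which are no independent replicates.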

How the data were processed

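The values are expected counts, that is estimated counts per gene, deposited by the authors as whole numbers in 1 table per assay and time, and the submitters' processing notes name HISAT2, StringTie and the hg38 build without versions. Small values in the 6 h and 2-week RNA tables fall in steps of more than 1 read, so precision for low counts there is unknown. Extraction and library kits are named without saying which library each served. All value columns were used.

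Ensembl IDs were matched without their version to GENCODE symbols (99.4% matched). Each table was fitted alone with edgeR 4.0.16 in R 4.3.3 (filterByExpr, TMM scaling, quasi-likelihood test, Benjamini-Hochberg adjustment over all genes tested, 0.05 as threshold). Translational efficiency was the assay-by-treatment term and the change in effect the time-by-treatment term. Fits were tested on simulated data. DESeq2 1.42.0, another filter, library totals, a replicate block, 1 fit over the 3 times and leaving out each library were tried. Exact 95% intervals are for counts and a level at or under 3 counts is taken as the floor. Levels per kb use the union of exons.

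Full values are given for each gene called, for those with the largest 72 h RNA change in each role, for the 5 genes with most 72 h footprints and for the 3 with the smallest p at 6 h and at 2 weeks. Of the other pathway genes, those called and the 3 with the smallest p in each direction at 72 h are named, except 1 that is not reported here. Other genes were named after their values were seen, and the members and lists were chosen with earlier results of these data known.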

Additional observations from a re-analysis of the deposited data

How the results depend on the processing

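Of 548 values of named genes under an alternative, 454 kept their direction and side of the threshold, 41 newly passed it, 33 no longer did and 20 changed sign. Of 311 counts and medians, 281 stayed within their limits. DESeq2 called more of the 55 genes than edgeR: 2 in RNA at 6 h, 11 at 72 h and 5 at 2 weeks, 1 in footprints at 6 h, 1 and 2 in translational efficiency at 6 h and 72 h, and 1 each in the change in effect of RNA and of footprints. The cause was not tested. One fit over the 3 times called 16 in RNA and 5 in footprints at 72 h. In footprints at 72 h the looser filter, library totals and the replicate block each left 0 of the 2 calls, and leaving out 1 library gave 0 to 6. Leaving out 1 library gave 0 to 1 calls in translational efficiency at 6 h and at 72 h and in the RNA change in effect.

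The correlations of deviations between libraries of the same number did not all pass 0.1 within any assay and time. In RNA at 72 h these were 0.085, 0.226 and 0.15, each the highest for its own number, which is a hint from the data only. Between RNA and footprint libraries of the same number at 72 h they were 0.174, 0.197 and 0.43 in actD and 0.157, 0.0877 and 0.191 in DMSO. Treating those 2 libraries as 1 culture in a replicate block left 0 calls in translational efficiency at each time, and MSH6 at 72 h was -1.85 with an edgeR adjusted p of 0.166. With the replicate block 0 of the 55 genes were called in any comparison, and the 92 calls over all genes in footprints at 72 h became 0.

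Library totals in place of TMM moved the median of all genes from 0.11 to -0.61 in 6 h footprints, and for translational efficiency at 6 h from -0.03 to -0.79. The median of the tested members became -1.18 and -0.957 there. At 2 weeks the same change took the all-gene median of RNA from -0.02 to -0.18, that of footprints from 0.02 to -0.14 and that of translational efficiency from -0.02 to 0.27. It took translational efficiency at 72 h from 0.03 to 0.36 and the footprint change in effect from 0.22 to 0.82. The split of calls over all genes in footprints at 72 h was 39 higher and 53 lower with TMM and 7 and 0 with totals. With 2-week RNA arms by title the median was 0.218, APEX1 was at -1.24, XRCC1 at 0.577, MCM5 at 0.518 and MSH6 at 0.943, all by construction, and 1 gene was called in translational efficiency. PRKDC footprints at 72 h, near 0, became 0.0232 with DESeq2, 0.138 with the looser filter and 0.171 in 1 fit over the 3 times, and ran from -0.139 to 0.222 when 1 library was left out. In translational efficiency at 72 h XRCC6 became 0.19 with the looser filter and 0.276 with totals and ran from -0.466 to 0.224 without 1 library, and APEX1 from -0.694 to 0.172. Median vehicle levels per kb of the longest transcript were 15.2, 14.1 and 10.9 CPM. The depth of 152556 to 1281039 counts limits the footprint results.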
